A study of Homo sapiens with 6 samples.

Results

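Proteasome subunit genes were followed in SKOV3 cells, a human ovarian cancer line, after transfection with a miR21 precursor. The proteasome is the protease complex that degrades ubiquitin-tagged proteins in the cytosol and nucleus. Its barrel-shaped core particle stacks rings of alpha subunits, which gate entry, on rings of beta subunits, which carry the peptidase sites. A regulatory particle of ATPases and scaffold subunits binds, unfolds and feeds in the substrates. Assembly needs dedicated chaperones, and in human cells the transcription factor NFE2L1 raises transcription of subunit genes when proteasome capacity falls short.

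The genes were taken by symbol: PSMA, PSMB, PSMC, PSMD, PSME, PSMF or PSMG followed by a number and nothing else, without the interferon-inducible subunits PSMB8, PSMB9 and PSMB10 and without pseudogenes. This gave 39 of the 19775 genes that a probe set named alone, read by 78 of 54675 probe sets, and the probe set of highest mean signal stood for each gene. Of the 39, 38 lay above the signal filter, and PSMA8, a testis form of an alpha subunit, lay below it. The symbols PSMA6, PSMB11, PSMC5, PSMD7, PSMD13 and PSME2 had no probe set of their own in the annotation used and were not analysed here. A further 8 genes with longer symbols, such as PSMC3IP and antisense RNAs, are not subunits and were set aside. Signals of different probe sets cannot be ranked against each other, so each gene was compared with itself across arrays.

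Cells were taken 24 h after transfection, either with the miR21 precursor, at 5 nM, or with a negative control precursor, whose dose the labels do not state apart, with 3 arrays per group and the replicate numbers 1 to 3 in both. All arrays therefore came from transfected cells of 1 line. The labels call the cells high-grade serous ovarian cancer. The epithelial and ovarian markers had 8 of 10 genes above the filter, PAX8 and ERBB2 among them, while WT1 and MUC16, markers of that tumour type, lay below it. Of 11 fibroblast, leukocyte and endothelial markers, COL1A1 and PECAM1 lay above the filter. The labels do not say whether the arrays of a group are separate cultures, so the spread behind each p-value may be technical. In bulk RNA, a change in some of the cells and a smaller change in all of them cannot be told apart.

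The agent of the comparison, miR-21-5p, is shown because its seed (bases 2 to 8, in capitals) sets which transcripts it pairs with. The mature sequence is that of RefSeq on GRCh38.p14, chr17:59841273-59841294, plus strand.
hsa-miR-21-5p: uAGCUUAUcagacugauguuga
No transcript sequences were used here, so seed matches in the proteasome transcripts were not searched.

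Proteasome genes differed little between miR21 and control. The median log2 difference (miR21 minus control) of the 38 genes was -0.071, against -0.010 over all 12204 genes tested. Centring each array on its median adds the same 0.099 to every difference, which turned the median of the 38 genes to 0.028 and that of all genes to 0.089, while quantile normalization gave -0.089 and 0.0068. With limma and Benjamini-Hochberg adjustment, 0 of 38 passed an adjusted p of 0.05, where 0% of all genes passed, and 0 had an unadjusted p under 0.05, against 2.44% of all genes. Blocking on the replicate number, limma again called 0 of 38, against 0.0328% (4 genes) of all tested. In that fit 2 of the 38, PSME3 and PSMC4, had an unadjusted p under 0.05, while 20.1% of all genes did.

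The differences of the 38 genes ran from -0.38 for PSMD1 to 0.55 for PSME3, that is, from 1.30-fold lower to 1.46-fold higher. They stayed within 0.25 of 0 on the log2 scale for 30 genes (78.9%), against 50.9% of all genes and 55.2% of the 8186 genes above the upper quartile of signal, and within 0.5 for 37 (97.4%), against 78.8%. The median log2 signal was 12.9 for the 38 genes, 9.66 for all genes and 10.5 for those above the upper quartile. Neither set matches the 38 genes in signal, and the part of signal level in these shares was not tested. Differences were negative for 27 genes and positive for 11, or for 15 and 23 with median centring. On the deposited scale 13 genes (34.2%) were lower with miR21 in all 3 replicate numbers and 4 (10.5%) higher, against 20.9% and 20.3% of all genes. These counts were not made with median centring. The groups did not overlap for 1 gene, PSMD10, against 6.65% of all genes. A p that misses the threshold does not show that levels were equal. The 95% intervals of the block fit lay within 0.5 of 0 for 24 of the 38 genes and within 1 for all 38, and those of the fit without the block lay within 1 for 15.

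**Figure D1:**
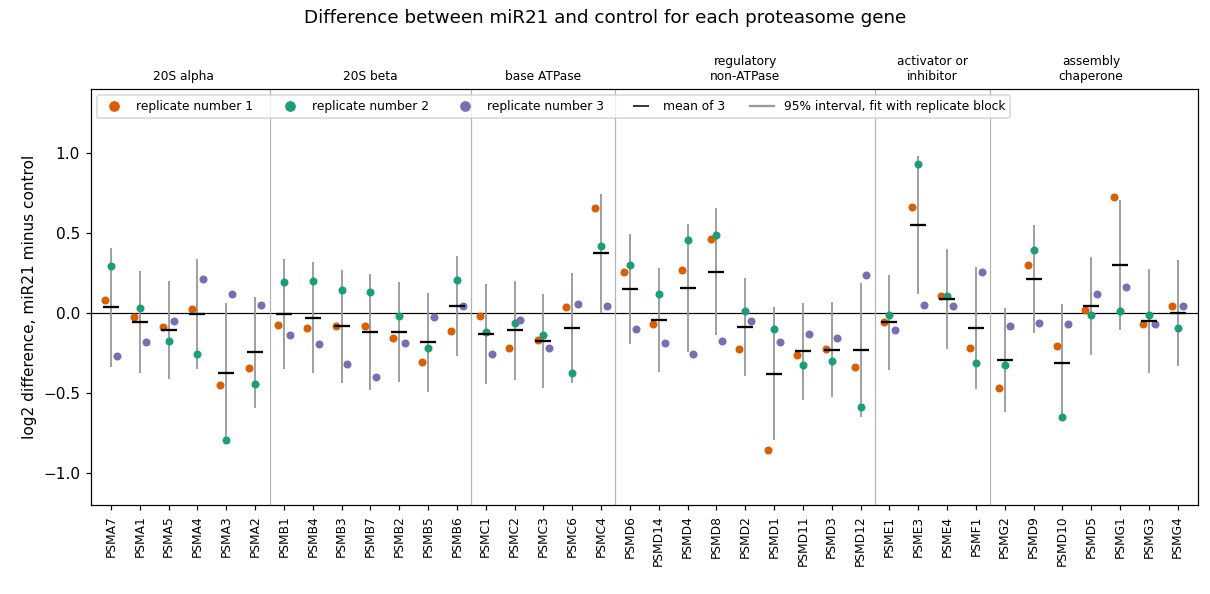
Log2 difference between miR21 and control for each of the 38 proteasome genes, by role. Coloured points are the 3 replicate numbers, black bars their mean and grey lines the 95% interval of the fit that blocks on replicate number; most means lie within 0.25 of 0, and the points farthest from 0 are those of PSME3 in number 2, PSMD1 in number 1 and PSMA3 in number 2.

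The 6 measured alpha subunits of the core had a median difference of -0.082, and 5 of the 6 were lower (3 of 6 with median centring). PSMA3 had the widest difference among them. Its signals were 12712, 9249.6 and 8172 with the control and 9286, 5338 and 8871 with miR21, in the order of replicate numbers 1 to 3. The miR21 array was lower in numbers 1 and 2 and slightly higher in number 3, and the groups overlapped. The log2 difference was -0.38 (-0.45, -0.79 and 0.12 in numbers 1, 2 and 3; block interval -0.81 to 0.063, adjusted p = 0.305 in limma with the block). A dimmer PSMA3 probe set differed by -0.39.

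PSMA2, another alpha ring subunit, had signals of 8145, 8725 and 8088 with the control and 6413, 6425 and 8368 with miR21. The 3 control arrays lay close together, and the miR21 arrays of numbers 1 and 2 lay below all of them, while number 3 lay within their range. The log2 difference was -0.25, and that of the other PSMA2 probe set was -0.68, with -0.93, -1.02 and -0.088 in numbers 1, 2 and 3. PSMA5 differed by -0.10, with signals of 8091, 16353 and 17282 with the control and 7616, 14459 and 16697 with miR21, and its second probe set differed the other way (0.23). PSMA1, PSMA4 and PSMA7 differed by -0.059, -0.0059 and 0.036.

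The 7 beta subunits had a median of -0.083, and 6 of the 7 were lower (3 of 7 with median centring), all within 0.25 of 0. PSMB5, PSMB6 and PSMB7 carry the catalytic sites of the constitutive core. PSMB5, the chymotrypsin-like site, gave signals of 3989.7, 10099.5 and 12591 with the control and 3224, 8687 and 12354 with miR21, and each miR21 array lay close below the control array of its own number. PSMB6, the caspase-like site, gave 3396, 5685 and 8008 with the control and 3135, 6557 and 8238 with miR21, lower in number 1 and higher in numbers 2 and 3. PSMB7, the trypsin-like site, gave 9579, 17495 and 26755 with the control and 9047, 19174 and 20268 with miR21, higher in number 2 and lower in the other two. Groups overlapped for all 3 genes. Their log2 differences were -0.18, 0.044 and -0.12, with block intervals of -0.50 to 0.13, -0.27 to 0.36 and -0.48 to 0.25.

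The structural beta subunit PSMB2 had signals of 10918, 15112 and 20651 with the control and 9806, 14941 and 18099.5 with miR21, a difference of -0.12, and was lower in all 3 numbers. Its 3 dimmer probe sets differed by -0.55, -0.37 and -0.32. PSMB1, PSMB3 and PSMB4 differed by -0.0058, -0.083 and -0.028.

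In the base of the regulatory particle, where a ring of ATPases unfolds substrates, 4 of 5 measured ATPase genes were lower (3 of 5 with median centring) and PSMC4 was higher. PSMC4 signals were 1772, 2522 and 3205 with the control and 2792, 3372 and 3306 with miR21. The miR21 array was above the control array of the same number each time, by 0.66, 0.42 and 0.045 on the log2 scale, and the groups overlapped because control replicate 3 lay above miR21 replicate 1. The mean difference was 0.37 (block interval 0.0031 to 0.74, unadjusted p = 0.0486, adjusted p = 0.247 in limma with the block). PSMC3 gave 3385, 8664 and 11164 with the control and 3009, 7868 and 9611 with miR21 and differed by -0.18, lower in each number. PSMC1 gave 7439, 15727 and 18608 with the control and 7353, 14455 and 15612 with miR21 and differed by -0.13, also lower in each number. PSMC2 and PSMC6 differed by -0.11 and -0.093. The mean differences of these 4 genes spanned a narrow range, from -0.18 to -0.093. PSMC6, however, was lower in number 2 only (0.035, -0.37 and 0.058 in numbers 1, 2 and 3).

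The 9 non-ATPase subunits of the regulatory particle had a median of -0.087, with 6 lower and 3 higher (4 and 5 with median centring). PSMD1, a large scaffold subunit of the base, had signals of 4891, 10358 and 13434 with the control and 2699.7, 9674 and 11852 with miR21. Most of its difference of -0.38 lay in number 1, at -0.86, with -0.099 and -0.18 in numbers 2 and 3. Without both arrays of number 1 the difference was -0.14 in the block fit. Without miR21 replicate 1 alone it was 0.28, but the low control array of number 1 then stands in 1 group only. A second PSMD1 probe set differed by -0.23. On their brightest probe sets, the lid subunits PSMD11 and PSMD3 were lower by similar amounts in every number. PSMD11 gave 4865, 6180.2 and 7458 with the control and 4053, 4934 and 6804 with miR21 (difference -0.24). A dimmer PSMD11 probe set did not share this and differed by 0.029, with -0.10, -0.030 and 0.22 in numbers 1, 2 and 3. PSMD3 gave 5733, 5497 and 6585 with the control and 4903, 4456 and 5907 with miR21 (difference -0.23). For both genes the groups overlapped, and the block intervals (-0.54 to 0.061 and -0.53 to 0.069) included 0.

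The ubiquitin receptor PSMD4 differed by 0.16, and its 2 next probe sets by 0.31 and 0.25. The lid deubiquitinase PSMD14 differed by -0.044 and the base scaffold PSMD2 by -0.087. The lid subunits PSMD6, PSMD8 and PSMD12 differed by 0.15, 0.26 and -0.23, each with numbers 1 and 2 on one side of 0 and number 3 on the other.

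Among alternative activators and the inhibitor, PSME3 had the largest difference of the 4 measured genes. PSME3 encodes PA28-gamma, a nuclear activator that opens the core without ATP. Its signals were 1873, 4709 and 5906 with the control and 2967, 8993 and 6119.7 with miR21. The miR21 array was higher in every number, but in number 3 by only 0.051, against 0.66 and 0.93 in numbers 1 and 2, and the groups overlapped. The mean difference was 0.55 (SE 0.55, adjusted p = 1 in limma, and SE 0.18, unadjusted p = 0.0195, adjusted p = 0.184 with the block). The exact two-sided permutation test gave p = 0.5, where 3 arrays against 3 cannot give less than 0.1. The 4 PSME3 probe sets disagreed: the others, in order of falling signal, differed by 0.018, 0.67 and -0.45. The direction for PSME3 therefore depends on the probe set.

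PSME1, a PA28-alpha subunit that interferon induces, gave 5659, 9356 and 8755 with the control and 5438, 9280.4 and 8124 with miR21. Each miR21 array lay within 0.11 log2 units below its control, and the difference was -0.059 (block interval -0.36 to 0.24). PSME4, the activator PA200, gave 1410.4, 2066 and 2538 with the control and 1516, 2223 and 2622 with miR21 and a difference of 0.086, positive in each number. PSMF1, the inhibitor PI31, gave 2966, 1891 and 1182 with the control and 2544, 1525 and 1414 with miR21 and a difference of -0.091, and its 3 other probe sets ranged from -0.36 to 0.25.

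The 7 measured assembly chaperones had a median of -0.00082, with 4 lower and 3 higher (2 and 5 with median centring). PSMD10 (gankyrin), a chaperone of the base, was the 1 gene without overlap. Its signals were 4772, 5194 and 4661 with the control and 4129, 3307 and 4445 with miR21, so that every miR21 array lay below every control array. The log2 difference was -0.31 (-0.21, -0.65 and -0.069 in numbers 1, 2 and 3; SE 0.26, limma adjusted p = 1, 0.307 with the block, exact two-sided permutation p = 0.1, the smallest possible). Its second probe set differed by -0.17. PSMD10 also had the smallest range between replicate numbers of the 38 genes, 0.14 log2 units.

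PSMG2, which with PSMG1 forms the dimer that builds the alpha ring, gave 6286, 9174 and 9585 with the control and 4541, 7314 and 9065 with miR21, lower in each number, with a difference of -0.29. PSMG1 gave 3853, 1269 and 1246 with the control and 6381, 1279 and 1392 with miR21. Both arrays of number 1 lay far above the rest, and the difference of 0.30 came mainly from number 1 (0.73, 0.011 and 0.16 in numbers 1, 2 and 3). The 2 partners thus had opposite signs, and neither passed the test. PSMG3, PSMG4 and the base chaperones PSMD5 and PSMD9 differed by -0.049, -0.00082, 0.042 and 0.21. Dimmer probe sets of PSMG4 and PSMD9 above the filter differed by 0.36 and -0.073.

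Replicate numbers separated the proteasome signals more than the transfection did. Averaged over both groups, the gap between the highest and the lowest replicate number had a median of 1.10 log2 units over the 38 genes, against 0.895 over all genes. This gap exceeded the difference between groups for 36 of the 38 (94.7%), against 88.7% of all genes. A gap between the extremes of 3 averages tends to exceed a difference of 2 averages by construction, so that count is not a test. Number 1 lay below the mean of numbers 2 and 3 for 30 genes and above it for 8, with a median of -0.79. Over all genes tested that median was -0.037, and over the genes above the upper quartile it was -0.28. Both sets are dimmer than the 38 genes, and the part of signal level was not tested. After quantile normalization the medians were -0.59 for the 38 genes and -0.21 for all genes, and 27 of 38 were lower. With arrays centred on their median they were -1.85 and -1.10, and 36 of 38 were lower. All 9 regulatory non-ATPase genes were lower in number 1. On the deposited scale the 8 genes higher in number 1 were PSMG1 (1.94), PSMG4 (1.13), PSMF1, PSMC6, PSMA3, PSMA4, PSMB1 and PSMD10, the last 3 by less than 0.15.

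**Figure D2:**
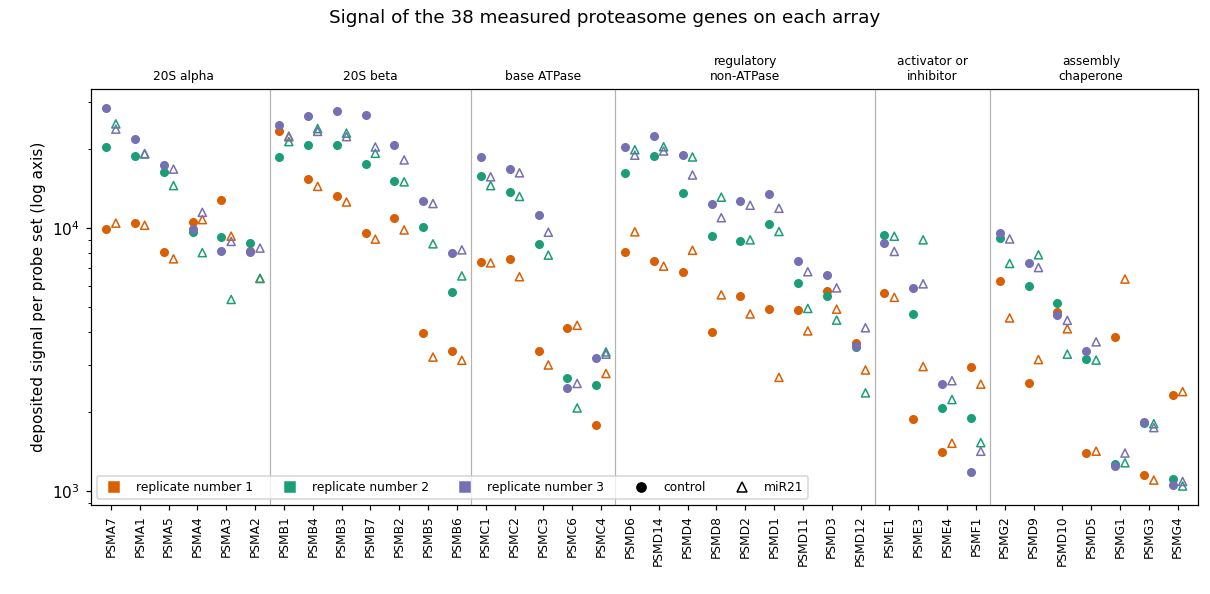
Deposited signal of each of the 38 measured genes on the 6 arrays (log axis), by role; filled circles are control arrays, open triangles miR21 arrays and colours replicate numbers. For most genes both arrays of number 1 lie below the other 4, and control and miR21 arrays of one number lie close together.

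The median signal over the 38 genes was 5573, 9212 and 9723 with the control and 5164, 8359 and 9334 with miR21, for numbers 1, 2 and 3. On the deposited scale each miR21 median was below the control median of its number, and both number 1 medians were below the other 4. The median over all probe sets was also lower with miR21 in each number. It was 125, 57.9 and 61.9 with the control and 117, 55.2 and 56.6 with miR21. Number 1 also stood apart over the whole array: its median signals over all probe sets were 125 and 117, against 55.2 to 61.9 on the other arrays, at the same trimmed mean. The ratio of 3' to 5' signal of the ACTB control transcript, a sign of RNA length, was 1.79 and 1.96 in number 1, 2.89 and 3.32 in number 2 and 1.29 and 1.36 in number 3 (control and miR21), so it was highest in number 2. That of GAPDH was 1.07 on both arrays of number 1 and 0.899 to 0.954 on the other 4. Summed signals of markers of other cell types, though dim, moved with the number as well and were highest in number 1 each time. The sum of 5 fibroblast markers ran from 264 to 896 with the control and from 175 to 1077 with miR21. That of 3 endothelial markers ran from 73.9 to 652 and from 63.3 to 500, and that of 3 leukocyte markers from 60.3 to 201 and from 19.6 to 123. Single markers did not all share this. With the control, CDH5, CD14 and COL3A1 were lowest in number 1 and the others highest. With miR21, CD14, COL3A1 and PDGFRB were not highest in number 1. COL1A1, PECAM1 and CD3E held most of the control sums of number 1. CD3E, PTPRC, CD14, VWF and CDH5 lay below the filter. The part of any of these in the gaps between numbers was not tested. Other probe sets did not always show the same gap: of 30 further probe sets of the same genes above the filter, 18 had the sign of the first. The further probe sets shared the sign of the miR21 difference for 21 of the 30. PSME3 is an example of a discordant gap, with number 1 gaps of -1.41 and 0.0087 for its 2 brightest probe sets.

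**Figure D3:**
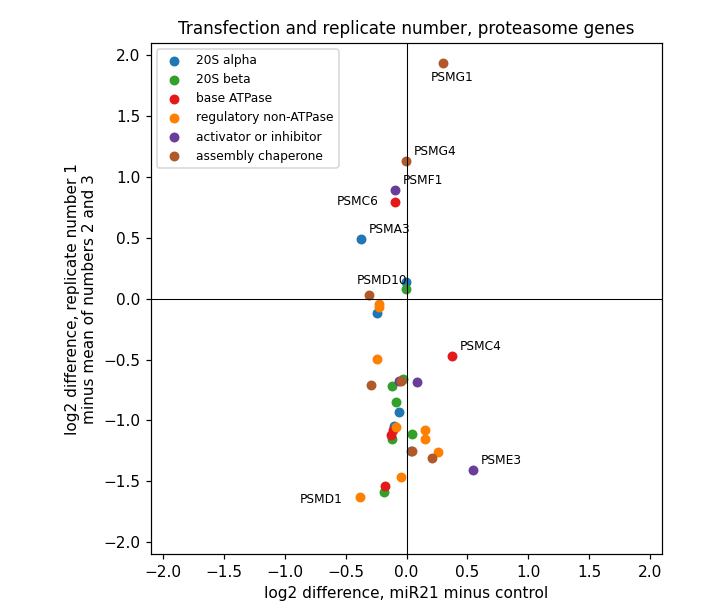
Each point is 1 of the 38 genes, coloured by role: the horizontal axis is the log2 difference between miR21 and control, the vertical axis the log2 difference between replicate number 1 and the mean of numbers 2 and 3, drawn to the same scale. The points spread along the vertical axis, down to -1.63 for PSMD1 and up to 1.94 for PSMG1, and stay between -0.38 and 0.55 on the horizontal one.

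The size of the difference between miR21 and control also varied with the replicate number. In number 1, 4 of the 38 genes (PSMD1, PSMG1, PSME3 and PSMC4) differed by more than 0.5 log2 units between miR21 and control, in number 2 again 4 (PSME3, PSMA3, PSMD10 and PSMD12), and in number 3 none (0 of 38). The shares over all genes were 34%, 38.9% and 16.7%. The sign was the same in numbers 1 and 2 for 26 of 38 genes, and in all 3 numbers for 17. Without both arrays of number 3, limma with the block called 12 of the 38 genes (31.6%), 6 higher and 6 lower, a share near the 32.8% of all genes in that fit, which rests on 1 residual degree of freedom. These were PSME3, PSMC4, PSMD8, PSMD9, PSMD4 and PSMG1 on the higher side and PSMA3, PSMD12, PSMD1, PSMD10, PSMG2 and PSMA2 on the lower side. Without number 1 the same fit called 0 of 38, against 0.483% of all genes, and without number 2 it called 0 of 38 and 0% of all.

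Another 6 lists around the proteasome were read from the same fits, without a test of the lists. The immunoproteasome subunits PSMB8, PSMB9 and PSMB10 replace the catalytic subunits in cells exposed to interferon and are not among the 38 genes. All 3 were lower under each scaling, with differences of -0.17, -0.63 and -0.30, and 0 of 3 were called. PSMB9 gave 2260.2, 4156 and 2593 with the control and 1042, 2292 and 2758 with miR21, so its miR21 array was lower in numbers 1 and 2 and not in number 3 (adjusted p = 0.204 in limma with the block). The catalytic subunits they replace lay between -0.18 and 0.044, a range that holds PSMB8 but not PSMB9 or PSMB10. Whether the 2 sets differ was not tested.

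The 6 measured of 9 listed regulators of proteasome gene transcription were all higher under each scaling, with a median of 0.40, and 0 of 6 were called. In all 3 numbers 5 of them were higher, where 20.3% of all genes were. FBXW7 and NGLY1 differed least, by 0.15 and 0.11. The list was not sorted by how each gene acts, so its signs give no direction of regulation. NFE2L1, the transcription factor named above, gave 4861, 6965 and 5936 with the control and 8459, 13778 and 6578 with miR21. The miR21 array was higher in each number, by 0.80, 0.98 and 0.15, and the groups overlapped because miR21 replicate 3 lay below control replicate 2. Its mean difference was 0.64 (adjusted p = 0.149 in limma with the block, 1 without), and its 2 other probe sets differed by 0.63 and 0.70. MAFF, a small MAF protein that pairs with NFE2L1, differed by 0.45, with 0.73, 0.40 and 0.22 in numbers 1, 2 and 3, but its levels differed far more between numbers: 3091, 2211 and 328 with the control and 5125, 2908 and 381 with miR21. A second MAFF probe set differed by 0.12, with 0.0037, 0.63 and -0.27 in numbers 1, 2 and 3.

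Proteasome-associated factors had a median of 0.11 over 13 genes, 8 higher and 5 lower (11 and 2 with median centring), with 0 called. ZFAND2A, a zinc finger protein that binds the regulatory particle under stress, gave 1075, 2484 and 1964 with the control and 2627, 6037 and 2159 with miR21 and a difference of 0.90 (adjusted p = 0.141 in limma with the block). AKIRIN2, which brings proteasomes into the nucleus, gave 1081, 2259.8 and 2448 with the control and 2310.3, 3974 and 2751 with miR21 and a difference of 0.69 (adjusted p = 0.146). Both were more than 0.8 log2 units higher in numbers 1 and 2 and less than 0.2 in number 3. Of the 3 dimmer AKIRIN2 probe sets above the filter, 2 differed by 0.59 and 0.92 and the dimmest by -0.093.

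Shuttle factors and the p97 unfoldase complex, which deliver ubiquitinated proteins, had a median of 0.10 over 10 measured of 11 genes and 0 called. VCP, the p97 ATPase itself, gave 6664, 7573 and 10449 with the control and 3929, 5264 and 9439.5 with miR21, lower in each number, and differed by -0.48 (adjusted p = 0.175 in limma with the block), with a second probe set at -0.26. The shuttle gene UBQLN4 differed by 0.30, and its second probe set by -0.29. The COP9 signalosome, whose subunits are related to those of the proteasome lid, had a median of -0.032 (0.068 with median centring) over 9 genes and 0 called. COPS8 gave 3075, 3275 and 2497 with the control and 3968, 3801 and 3543 with miR21 without overlap of the groups and differed by 0.36, while COPS4 differed by -0.38. Of 6 ubiquitin and E1 enzyme genes 3 were measured, with a median of 0.043. The E1 genes UBA1 and UBA6 differed by 0.043 and 0.088, while the 3 dimmer UBA6 probe sets above the filter differed by -0.090, -0.015 and -0.075.

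**Figure D4:**
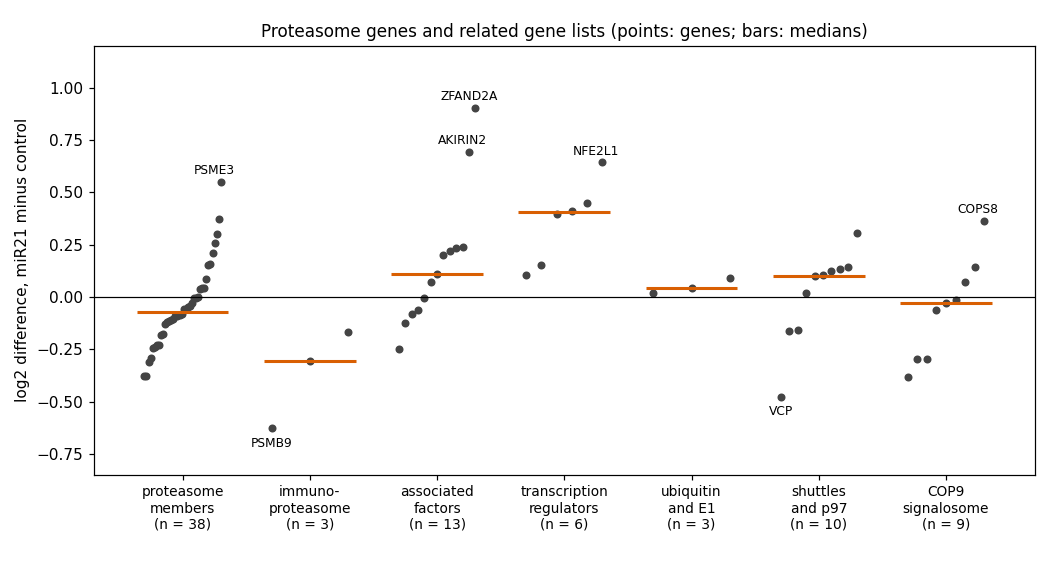
Log2 difference between miR21 and control for each measured gene (points) of the 38 proteasome genes and the 6 related lists, with the median of each list (bars). The proteasome genes centre near 0 and span -0.38 to 0.55, the 3 immunoproteasome genes lie below 0, and the 6 transcription regulators lie above 0.

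The antioxidant response element is the DNA motif that NFE2L1 with a small MAF protein, and the related NFE2L2, bind. Promoter windows from RefSeq on GRCh38.p14, from 250 bases before to 50 after each transcript start, were found for 33 of the 39 genes by symbol. The letters TGACNNNGC on either strand were present for 12 of the 33 (36.4%), against 16.1% of 27305 genes in the table and 19.8% of the 9970 genes tested here that have a window. The NF-Y box CCAAT was present for 16 (48.5%, against 39.7% of genes in the table and 43.1% of those tested) and the palindromic box of nuclear respiratory factor for 1 gene (3.03%, against 1.52% and 2.79%). The sites that lie wholly upstream of the start, in 10 of the 12 genes, are shown with 10 bases on each side because they are the letters behind that share, written along the motif strand with the motif in capitals.
PSMA4 (chr15:78540650-78540678, plus strand): gtgggcacgaTGACTCTGCaccgcctcct
PSMB3 (chr17:38752627-38752655, plus strand): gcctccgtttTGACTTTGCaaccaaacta
PSMD12 (chr17:67366724-67366752, minus strand): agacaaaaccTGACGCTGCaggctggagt
PSMD3 (chr17:39980760-39980788, plus strand): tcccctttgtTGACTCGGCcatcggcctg
PSMD5 (chr9:120843038-120843066, minus strand): tggctacagtTGACACGGCcctaacggag
PSMD9 (chr12:121888631-121888659, minus strand): gcgcctgtggTGACCCGGCaggagtagcg
PSMD9 (chr12:121888678-121888706, plus strand): cggcttccggTGACCCAGCtccgccctaa
PSME1 (chr14:24136098-24136126, plus strand): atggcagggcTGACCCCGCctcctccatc
PSME4 (chr2:53971009-53971037, plus strand): gctctgctggTGACGCTGCagccgccggg
PSMG1 (chr21:39183616-39183644, minus strand): gcccagggcaTGACAGCGCgggcgggcgg
PSMG2 (chr18:12658689-12658717, plus strand): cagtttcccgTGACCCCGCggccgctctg
They lie between 34 and 183 bases upstream of the start of their window. For PSMA4 this does not hold for all of its starts, since the gene begins at chr15:78540405, before the printed site. The middle letters of the motif vary among the 11 sites, and PSMD9 carries 2 of them on opposite strands. A match is a description of letters and not a binding site. The 12 genes with the motif had a median difference of -0.032, with 7 lower and 5 higher (0.067, 4 and 8 with median centring). The 20 measured genes with a window and without the motif had a median of -0.099, with 17 lower and 3 higher (0.00042, 10 and 10 with median centring). The difference between them was not tested.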

How the data were processed

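Total RNA from the 6 samples was converted to biotin-labelled amplified RNA and read on Human Genome U133 Plus 2.0 arrays, per the labels' protocols. The authors made the values with MAS5, per the submitters' processing notes, which give no version here. They were deposited as linear intensity, 1 signal per probe set. Their 2% trimmed mean is 500 on every array, so a change common to most genes cannot be seen.

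Signals were used as log2, with no pseudocount. Probe sets naming 1 gene in the platform annotation were kept, with the probe set of highest mean log2 signal per gene, and a gene needed at least the median over all probe sets (log2 6.03), which left 12204 of 19775. Of the first probe sets, 4 carry the suffix x, which marks probes shared with other transcripts. Groups were compared with limma 3.58.1 in R 4.3.3 (variance trend, Benjamini-Hochberg at 0.05 over all genes tested). Arrays of the same number in the sample titles deviated together from their group means (correlations 0.899, 0.639 and 0.636 for numbers 1, 2 and 3), so a second fit blocks on that number. The pairing is less clear between numbers 2 and 3. Control replicate 3 with miR21 replicate 2 gave 0.411, and control replicate 2 with miR21 replicate 3 gave 0.281. In whole signal, control replicate 2 correlated more with miR21 replicate 3 (0.964) than with miR21 replicate 2 (0.947). The number of arrays limits the precision. On simulated data for miR21 minus control over 12204 genes, changes of 0.5, 1 and 2 log2 units were recovered in 39.6%, 86.4% and 100% of cases with the block and in 0% without it. The simulated noise had 1 smoothed spread at each signal level, the same in every replicate number, unlike the measured arrays. These shares therefore do not give the power in the measured data, where 540 genes differed by more than 1 log2 unit and the block fit called 4.

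The genes and lists were chosen with earlier results of these data known. Named genes: the catalytic subunits, PSME1, up to 4 genes per role by smallest block p (3 are given on every array), other subunits by their difference, and of each related list the 2 of smallest block p. Alternatives were 2 other normalizations, 16 added to the signal, 2 filters, no variance trend, array weights, 2 probe set rules, the block, and arrays left out.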

Additional observations from a re-analysis of the deposited data

How the results depend on the processing

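The count of 0 proteasome genes past an adjusted p of 0.05 held under every alternative except the block fit without number 3 (12 genes). Over all genes, limma called 4 with the replicate block, 59 with the block without number 1, 4004 without number 3 and 13 with the block and arrays centred on their median. That last fit, and the block with quantile normalization (0 genes), were chosen after seeing the data. The median of the proteasome genes moved from -0.071 to 0.028 when arrays were centred on their median, with or without the block, a scaling that moved the median of all genes from -0.01 to 0.089. Leaving out 1 array moved it between -0.28 (without control replicate 1) and 0.23 (without miR21 replicate 1), since the arrays of number 1 then stand in 1 group only. Of the 38 genes, 7 kept their sign under all 21 alternatives (PSMA2, PSMC4, PSMD3, PSMD10, PSMD12, PSME3 and PSMG2), and PSMA3 kept it under the 20 that measured it. Signs changed for 12 of the 38 with median centring, 7 with array weights, 5 with probe sets averaged, 2 of 31 measured with the most variable probe set and 1 with quantile normalization. The block changed no call of a named gene. Among the genes given with their values on every array and the named genes of the related lists, signs turned for PSMA5 at 0.062, PSME4 at -0.045, COPS8 at -0.12 and UBA6 at -0.28 with probe sets of a gene averaged, for PSMA5 at 0.23, PSMD11 at 0.029 and UBQLN4 at -0.29 with the most variable probe set, for PSMB6 at -0.037, PSMF1 at 0.018 and UBA1 at -0.081 in the block fit without number 2, for PSMB7 at 0.0078 and MAFF at -0.049 with array weights, for PSMB7 at 0.025 in the block fit without number 3, for PSME1 at 0.040 and PSMF1 at 0.0082 with arrays centred on their median. With 1 array left out, differences ranged over -0.55 to 1.56 (MAFF), -0.46 to 0.24 (PSMA5), -0.80 to 0.27 (PSMB10), -0.35 to 0.13 (PSMB2), -0.68 to 0.38 (PSMB5), -0.29 to 0.45 (PSMB6), -0.51 to 0.26 (PSMB7), -0.48 to 0.22 (PSMB8), -0.53 to 0.21 (PSMC1), -0.69 to 0.34 (PSMC3), -0.80 to 0.28 (PSMD1), -0.28 to 0.17 (PSME1), -0.15 to 0.31 (PSME4), -0.43 to 0.24 (PSMF1), -0.45 to 0.84 (PSMG1), -0.049 to 0.19 (UBA1), -0.15 to 0.32 (UBA6). The number of arrays and the gap between replicate numbers limit all of these values.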
